A study of Mus musculus with 8 samples.

Results

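The genes described here are 10 transcription factors of epithelial-mesenchymal transition and of mesenchyme, *Snai1*, *Snai2*, *Zeb1*, *Zeb2*, *Twist1*, *Twist2*, *Tcf21*, *Prrx1*, *Prrx2* and *Meox1*. They were chosen by symbol, for their known roles, from the 26263 genes of the count files, and 9 of the 10 had enough counts to be among the 16399 genes tested. RNA-seq was available for male mouse embryonic stem cells (ESCs) and for neural precursor cells (NPCs) made from them by 12 days of *in vitro* corticogenesis, with 8 libraries in 4 groups of 2. The B/J groups came from line BJE2 (C57BL/6 mother, JF1 father) and the J/B groups from line JBE6 (JF1 mother, C57BL/6 father), so that each cross was 1 line and the cross cannot be told apart from the line. ESCs were kept in ESGRO medium with LIF, BMP4 and a GSK3-β inhibitor. NPCs were grown on Matrigel with B27 without vitamin A and with dorsomorphin homolog 1, an inhibitor of BMP signalling. No group carried an engineered allele. The sources do not say that the 2 replicates of a group were separate cultures, so the p-values measure the spread between these libraries, which may be technical.

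In an epithelium, cells are held together by E-cadherin junctions and keratin filaments. In epithelial-mesenchymal transition, the zinc finger factors Snai1, Snai2, Zeb1 and Zeb2 bind E-box sequences in promoters of epithelial genes, E-cadherin among them, and recruit repressors, and cells then become mobile and make mesenchymal matrix. Twist1, Twist2 and Tcf21 are basic helix-loop-helix factors of mesodermal and neural crest mesenchyme that bind DNA as dimers with E proteins. Prrx1, Prrx2 and Meox1 are homeobox factors, the Prrx pair of limb and craniofacial mesenchyme and Meox1 of somites. Embryonic neural tissue also uses some of these genes. *Zeb1* is expressed in dividing neural progenitors, *Zeb2* in young cortical neurons and in neural crest, and *Snai2* in neural crest as it leaves the neural tube.

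Each library held between 22537138 and 32706015 reads on genes, and values are given as CPM, the usual scaling of a count by the library's total of these reads. The libraries followed their stage labels in that all 10 pluripotency markers fell in NPCs and 9 of 10 neural precursor markers rose, the exception being *Pax6* at a log2 fold change of 1.77 ± 0.73 (SE, adjusted p = 0.0606), which passed with library totals (2.25, adjusted p = 0.0293) and with housekeeping genes (2.40, adjusted p = 0.0272). The NPC libraries also held RNA of genes that mark other tissues. The summed level of 10 trophoblast markers was 667 to 1655 CPM in NPCs and 61.6 to 143 CPM in ESCs, with 8 up and 0 down. That of 10 fibroblast markers was 1092 to 2536 CPM and 36.1 to 96.5 CPM, with 8 up and 1 down. That of 10 neural precursor markers was 182 to 747 CPM and 21.0 to 58.4 CPM. For 10 endothelium markers it was 303 to 985 CPM and 47.8 to 113 CPM, of which *Cdh5* made up 254 to 880 CPM in NPCs, while 4 of the 10 markers rose and 3 fell. The 10 endoderm markers summed to 34.1 to 130 CPM in NPCs and 3.88 to 11.5 CPM in ESCs, and 7 of the 8 tested rose. The neural crest list summed to 182 to 406 CPM in NPCs and 77.0 to 109 CPM in ESCs, with 4 of the 10 markers up and 1 down, and *Tfap2b* alone at 46.2 to 200 CPM in NPCs. Of the 9 muscle markers tested, 4 rose and 3 fell. Over all genes tested, 37.5% rose and 31.9% fell. The counts of the endothelium and muscle lists, and the rises in the neural crest list, were near these shares. The defining trophoblast markers *Tpbpa*, *Prl3d1* and *Pappa2* had 0 counts in all 4 ESC libraries. In bulk RNA, a change in the number of cells of a type and a change in RNA per cell cannot be told apart, and this holds for each result below.

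Between the stages, 8 of the 9 tested factors rose in NPCs and none fell. The exception was *Meox1*. Over all genes, 37.5% of those tested rose and 31.9% fell in the same comparison (edgeR's quasi-likelihood test, Benjamini-Hochberg adjusted p below 0.05). The median log2 fold change of the 9 factors was 3.70, against 0.17 over all genes tested. In CPM, all NPC libraries lay above all ESC libraries for 8 of the 10 factors, and for 46.7% of all genes tested. The scale did not alter the number called, since all 8 rose also with libraries scaled by their totals or by *Gapdh*, *Gusb* and *Tbp*, although these scales moved the median of all genes to 0.65 and 0.80. Of all genes called, 54.0% were higher in NPCs on the TMM scale, a share that went to 70.1% under library totals and to 75.0% under the 3 housekeeping genes.

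**Figure D1:**
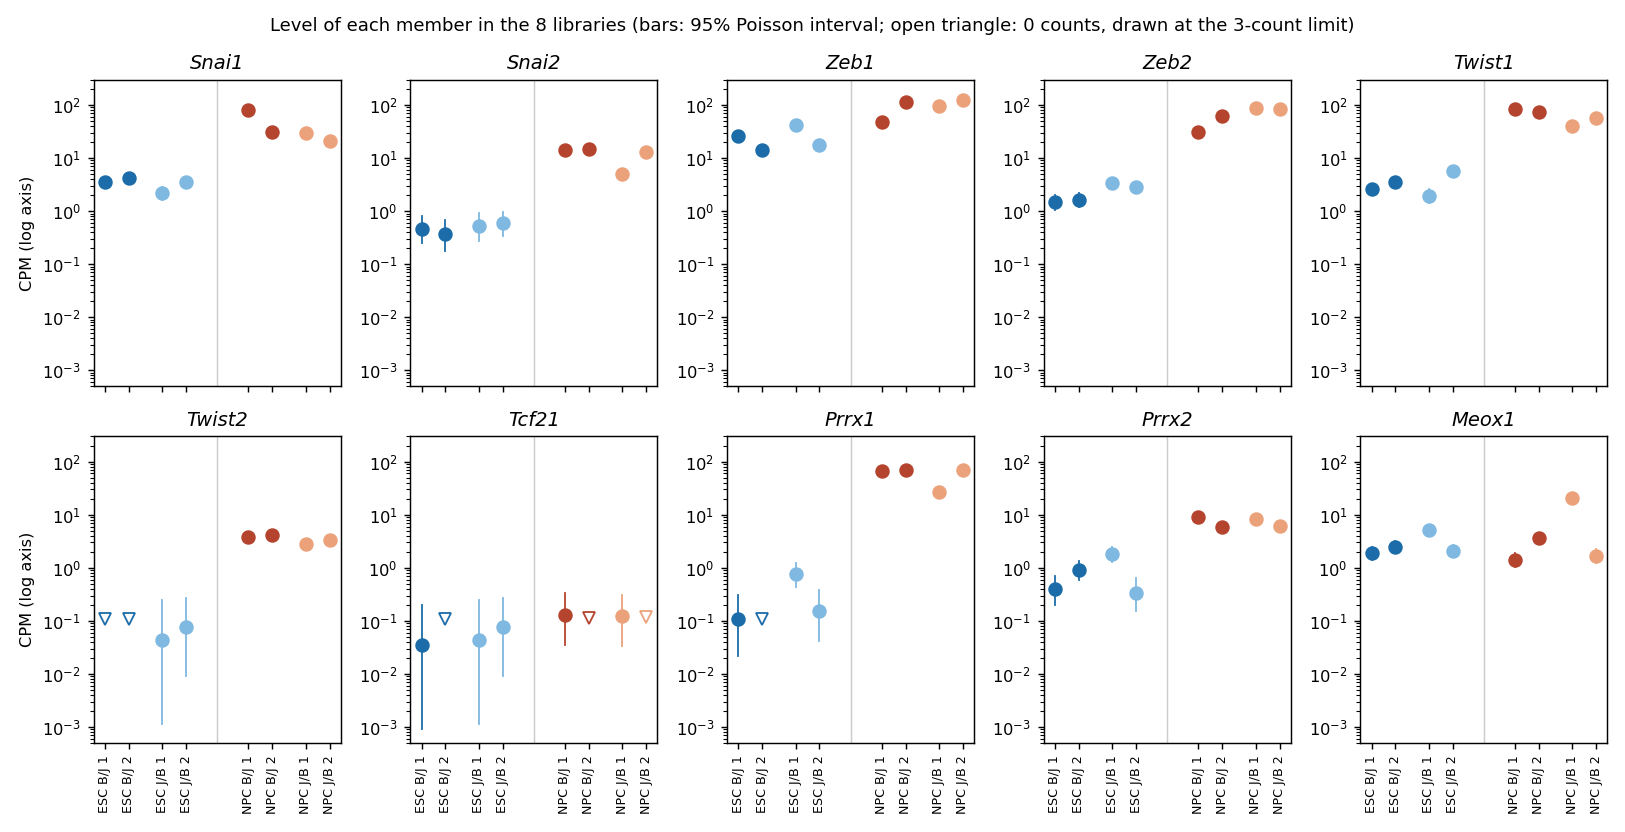
Level of each of the 10 factors in CPM on a log axis in the 4 ESC libraries (blue) and the 4 NPC libraries (red), dark for B/J and light for J/B, with 95% exact Poisson intervals for counting error, and with open triangles for 0 counts drawn at the limit that 3 counts set. All NPC points lie above all ESC points except for *Tcf21* and *Meox1*.

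Of the zinc finger factors, *Zeb2* was read at 1.46 and 1.64 CPM in B/J ESCs, at 3.37 and 2.79 CPM in J/B ESCs, at 30.9 and 61.4 CPM in B/J NPCs and at 86.5 and 83.6 CPM in J/B NPCs. The stages were far apart in every library, and NPC B/J replicate 1 was the lowest of the NPCs. The log2 fold change was 4.36 ± 0.26 (SE, adjusted p = 1.78e-05), the smallest standard error of the 9 factors. The fitted rises of *Zeb2* and *Snai2* lay within their errors, and within B/J that of *Snai2* was the larger (4.64 against 4.41). Its exons share 871 bp with those of the antisense gene *Zeb2os* in GENCODE vM39, and the strand setting of the counting is not given, so that reads of both strands there cannot be told apart.

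*Zeb1* had the smallest fitted rise of the 8. It was read at 26.0 and 14.3 CPM in B/J ESCs, at 42.2 and 17.7 CPM in J/B ESCs, at 47.5 and 112 CPM in B/J NPCs and at 94.4 and 124 CPM in J/B NPCs. The lowest NPC library, B/J replicate 1, lay close to the highest ESC library, J/B replicate 1. The rise was 1.43 ± 0.39 on the log2 scale (adjusted p = 0.0120). With TMM factors applied, which correct for the share of reads taken by other genes, these 2 libraries crossed over, at 41.6 CPM in the NPC library and 50.7 CPM in the ESC library. The position of *Zeb1* is chr18:5591851-5775467 on the plus strand of GRCm39.

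*Snai1*, which represses E-cadherin at gastrulation, was read at 3.56 and 4.12 CPM in B/J ESCs and at 2.17 and 3.55 CPM in J/B ESCs. In NPCs it was at 81.2 and 30.8 CPM in B/J and at 30.3 and 20.9 CPM in J/B. The stages did not overlap, and NPC B/J replicate 1 stood well above the other 3 NPC libraries. In the test it rose by 3.04 ± 0.36 (log2, adjusted p = 2.20e-04), and 2.59 without that library. *Snai1* lies at chr2:167380113-167384734 on the plus strand.

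*Snai2*, which encodes Slug, was close to silent in ESCs, at 0.46 and 0.36 CPM in B/J and 0.53 and 0.60 CPM in J/B. In NPCs it was at 14.3 and 14.7 CPM in B/J and at 4.98 and 13.1 CPM in J/B. Here NPC J/B replicate 1 was the low library, and the other 3 lay within a narrow range. It rose by 4.07 ± 0.41 on the log2 scale (adjusted p = 9.45e-05). *Snai2* lies at chr16:14523425-14527252 on the plus strand.

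Of the basic helix-loop-helix factors, *Twist1* and *Twist2* rose, while *Tcf21* was near the limit of detection at both stages. *Twist1* was read at 2.63 and 3.54 CPM in B/J ESCs, at 1.95 and 5.81 CPM in J/B ESCs, at 84.9 and 73.0 CPM in B/J NPCs and at 40.5 and 57.7 CPM in J/B NPCs. The stages were separated by a wide gap, and both B/J NPC libraries were above both J/B NPC libraries. Its log2 fold change was 3.70 ± 0.34 (adjusted p = 7.06e-05). *Twist1* lies at chr12:34007645-34009828 on the plus strand.

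*Twist2* had 0 counts in both B/J ESC libraries, which allows up to 0.107 and 0.109 CPM, and 1 and 2 counts in the J/B ESC libraries. In NPCs it was at 3.83 and 4.06 CPM in B/J and at 2.84 and 3.36 CPM in J/B, the narrowest ratio of highest to lowest among the 9 tested factors. Summed over libraries and scaled by their totals, it was 122-fold higher in NPCs (3 against 405 counts, 95% interval for counting error 41.4 to 594), and 87.7-fold higher with TMM factors (29.8 to 427). Without ESC J/B replicate 2, which held 2 of the 3 ESC counts, the first ratio was 273 (48.7 to 10815). In B/J alone, with the floor of 3 counts over both ESC libraries, *Twist2* was at least 72.9-fold higher in NPCs by library totals, or at least 52.6-fold higher by TMM scaling. The floor leaves out the counting error of the NPC counts, and the lower end of the exact 95% interval, which holds it, was 58.8 and 42.5. The values at the floor fell to 36.0 and 26.5 without ESC B/J replicate 1 and to 36.9 and 26.1 without ESC B/J replicate 2. The test over all genes gave an adjusted p of 8.29e-05, and its fitted log2 fold change of 7.35 ± 0.61 depends on the small counts added by the fit. The exons of *Twist2* share 1484 bp with those of *Gm29100* on the opposite strand.

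*Tcf21*, a factor of visceral and cardiac mesenchyme, had 1, 0, 1 and 2 counts in the ESC libraries. It had 4 and 0 counts in the B/J NPC libraries and 4 and 0 counts in the J/B NPC libraries. It did not reach the minimum count of the test, and the summed ratio of NPCs to ESCs was 1.81 with a counting interval of 0.484 to 8.20. A difference between the stages was not detectable at this depth.

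Of the homeobox factors, *Prrx1* had few counts in ESCs. It had 3 and 0 counts in B/J ESCs and 17 and 4 counts in J/B ESCs, that is 0.11, 0, 0.75 and 0.15 CPM. In NPCs it was at 67.9 and 69.0 CPM in B/J and at 27.1 and 71.2 CPM in J/B. The other NPC libraries were nearly level, and J/B replicate 1 was the low library, as for *Snai2*. Summed over libraries, the ratio was 250 on library totals (24 against 6634 counts, 95% counting interval 168 to 390) and 180 with TMM factors (121 to 280). The log2 fold change in the test was 8.01 ± 0.67 (adjusted p = 5.02e-05). This fitted value depended on the few ESC counts, at 10.02 without ESC B/J replicate 1 and 8.80 without ESC J/B replicate 1. The counting intervals of *Prrx1* and *Twist2* overlap, so that their ratios give no order of these factors.

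ESC J/B replicate 1 held 17 of the 24 ESC counts of *Prrx1*. The same library read *Col1a1*, a fibroblast marker, at 23.4 CPM, where the other ESC libraries were at 0.50, 1.42 and 2.68 CPM, and it had the highest sum of the 10 fibroblast markers among the ESCs. Without it, the ratio of *Prrx1* was 672 on library totals (326 to 1671). The part of other cells in this library in the ESC level of *Prrx1* was not tested.

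*Prrx2* was read at 0.39 and 0.91 CPM in B/J ESCs, at 1.82 and 0.34 CPM in J/B ESCs, at 9.09 and 5.83 CPM in B/J NPCs and at 8.32 and 6.05 CPM in J/B NPCs. The stages did not overlap, and ESC J/B replicate 1 was again the highest ESC library. On the log2 scale the rise was 2.64 ± 0.58 (adjusted p = 0.00428), and 3.50 without that library. *Prrx1* lies at chr1:163041844-163142033 on the minus strand and *Prrx2* at chr2:30724984-30774419 on the plus strand.

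*Meox1* was read at 1.89 and 2.48 CPM in B/J ESCs, at 5.15 and 2.11 CPM in J/B ESCs, at 1.43 and 3.69 CPM in B/J NPCs and at 20.8 and 1.68 CPM in J/B NPCs. The stages overlapped, and NPC J/B replicate 1 alone stood above the ESC range. The log2 fold change of 0.44 ± 0.74 did not pass the test (adjusted p = 0.607), and it was -0.94 without that library. Its relative *Meox2* had a log2 fold change of 6.31 ± 0.83 (adjusted p = 3.32e-04). *Meox2* had 3 counts in the ESC libraries together, so the size of this value depends on the small counts added by the fit.

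**Figure D2:**
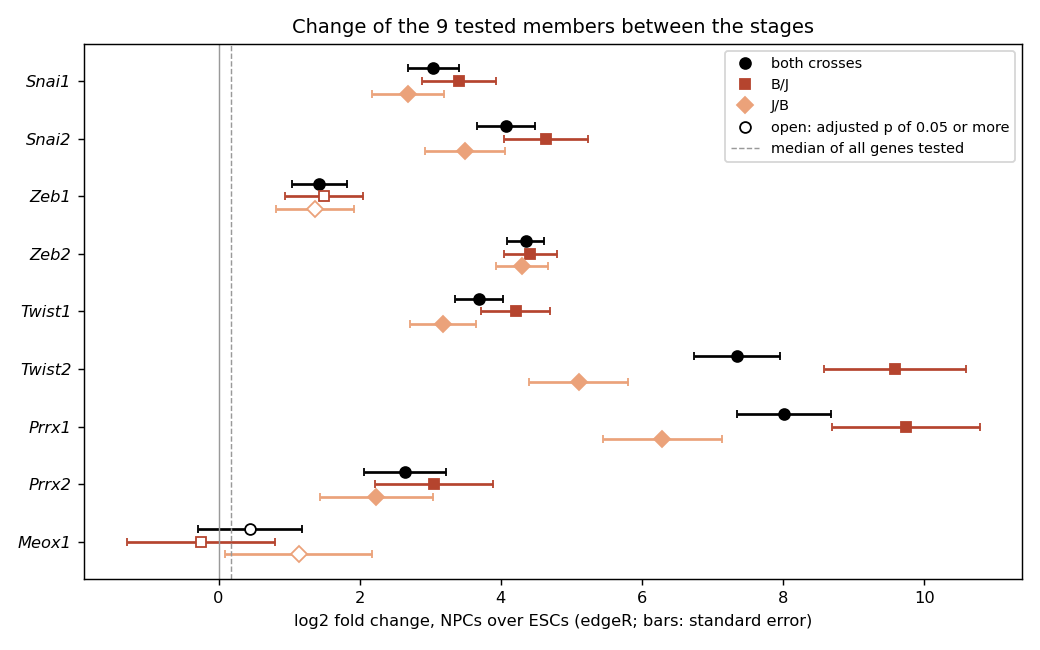
Log2 fold change of the 9 tested factors in NPCs over ESCs in edgeR's fit with its standard error, over both crosses (black), within B/J (dark red) and within J/B (light red), with open symbols for an adjusted p of 0.05 or more and a dashed line at the median of all genes tested. All but *Meox1* lie to the right of the median in every comparison, and *Zeb1* is open within each cross.

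Levels of different genes were compared per length as RPKM, which divides CPM by the length of the canonical transcript in kilobases, with the mean ± SD over the 4 libraries of a stage. In NPCs the order was *Twist1* (38.7 ± 11.6), *Snai1* (25.1 ± 16.8), *Zeb1* (16.3 ± 5.80), *Zeb2* (10.9 ± 4.26), *Prrx1* (9.88 ± 3.56), *Snai2* (5.09 ± 1.98), *Meox1* (3.06 ± 4.13), *Twist2* (2.64 ± 0.40), *Prrx2* (1.59 ± 0.35) and *Tcf21* (0.04 ± 0.04). From *Twist1* down to *Twist2*, each factor's range over the 4 libraries overlapped that of its neighbour. The ranges do not pair the values of a library, so an overlap does not show that neighbours were level. *Twist2* (2.13 to 3.04) lay above *Prrx2* (1.27 to 1.98), and *Prrx2* above *Tcf21*. In ESCs *Zeb1* came first (4.32 ± 2.15), followed by *Twist1* (2.11 ± 1.02), *Snai1* (2.06 ± 0.51) and *Meox1* (1.29 ± 0.67), and the other 6 were at 0.38 or less. With the length of all annotated exons in place of the canonical transcript, *Twist1*, *Snai1* and *Zeb1* still led in NPCs, but *Zeb2* came after *Snai2*, *Prrx1* and *Meox1* at 2.89. In ESCs these lengths put *Zeb1* (1.84) after *Twist1* (2.11) and *Snai1* (2.06).

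The rise was then read in each cross. Within B/J, 7 of the 9 tested factors rose, where 30.1% of all genes did, and within J/B 7 rose, where 29.1% of all genes did. *Zeb1* and *Meox1* were the exceptions in each cross. The log2 fold change of *Zeb1* was 1.50 ± 0.55 within B/J (adjusted p = 0.0502) and 1.36 ± 0.55 within J/B (adjusted p = 0.0679), values on either side of the one over both crosses. Within B/J it was 0.78 when NPC B/J replicate 2 was left out (adjusted p = 0.302) and 2.03 when ESC B/J replicate 1 was, neither past the threshold. Within J/B it was 0.86 when ESC J/B replicate 2 was left out (adjusted p = 0.241) and 2.19 when ESC J/B replicate 1 was (adjusted p = 0.0259). *Prrx2* was close to the threshold within J/B, at 2.23 ± 0.80 (adjusted p = 0.0462), and missed it when any library other than ESC J/B replicate 1 was left out, at an adjusted p of 0.0556 to 0.145. With ESC J/B replicate 1 left out its value there went to 3.95, and leaving out ESC J/B replicate 2 brought it to 1.47. Within B/J *Prrx2* changed by 3.06 ± 0.83 (adjusted p = 0.0161), with an adjusted p of 0.1002 without ESC B/J replicate 1 and 0.0632 without NPC B/J replicate 1, and it was 3.75 without ESC B/J replicate 2.

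No factor passed the test between the crosses, with or without a replicate block in each stage. The interaction of stage and cross called 0% of all genes with edgeR, while 573 genes had an unadjusted p below 0.05, and DESeq2 called 11 genes and limma-voom 0. The 2 factors among the 573 were *Twist2* and *Prrx1*, with interaction log2 values of -4.48 ± 1.45 and -3.45 ± 1.41, both of which rest on ESC counts of 0 to 17 per library. The value of *Prrx1* went to -7.43 without ESC B/J replicate 1 and to -1.87 without ESC J/B replicate 1. For *Snai1*, *Snai2*, *Twist1* and *Prrx2* the rise was smaller in J/B by 0.73, 1.15, 1.03 and 0.82 on the log2 scale, with standard errors of 0.62 to 1.11. None of these passed the test, and single libraries set their size or direction, since the interaction value of *Prrx2* turned to 0.90 without ESC J/B replicate 1, that of *Snai1* to 0.16 without NPC B/J replicate 1, and that of *Twist1* was -0.08 without ESC J/B replicate 2.

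Between the ESC groups, edgeR again called 0% of genes (346 had an unadjusted p below 0.05, and DESeq2 called 10 and limma-voom 0). *Zeb2* was higher in J/B by 0.96 ± 0.35 on the log2 scale, with both J/B libraries above both B/J libraries, but at an adjusted p of 1. Between the NPC groups, edgeR called 0.0061% of genes, which was the single gene *Firre* (named here since it was the only call), while 1050 had an unadjusted p below 0.05, and DESeq2 called 70 and limma-voom 1. That call was lost (0 genes) with a replicate block common to both stages, with library totals, with housekeeping genes, with the 4 NPC libraries alone, without any 1 of the NPC libraries and without either B/J ESC library. In NPCs *Zeb2* was higher in J/B by 0.84 ± 0.32 (adjusted p = 0.763) and *Snai1* lower in J/B by a log2 value of -1.19 ± 0.47 (adjusted p = 0.766). Without NPC B/J replicate 1 these values were 0.43 and -0.31. Neither passed the test, and no factor was called by DESeq2 or limma-voom in any of the 3 comparisons.

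The factors did not share an order of the 4 NPC libraries. *Snai1*, *Twist1* and *Prrx2* were highest in B/J replicate 1, where *Zeb1*, *Zeb2* and *Meox1* were lowest. In J/B replicate 1, *Snai2*, *Twist1*, *Twist2* and *Prrx1* were lowest, and *Zeb2* and *Meox1* were highest. The sums of the marker lists also differed between these libraries, in several orders, and no test compared them with the factors. In B/J replicate 1, the sum of the 10 trophoblast markers was 1655 CPM against 667 to 954 CPM in the other NPC libraries, that of the 10 neural precursor markers was 182 CPM against 480 to 747 CPM, and that of the 10 neuron markers was 365 CPM against 983 to 2055 CPM. The sum of the 10 endothelium markers was highest there too, at 985 CPM against 303 to 530 CPM, of which *Cdh5* was 880 CPM. The sum of the 10 pluripotency markers was highest in B/J replicate 2 (412 CPM against 115 to 198 CPM), where the tested factors lay between -0.30 and 0.44 on the log2 scale from their NPC means.

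In J/B replicate 1, the sum of the 10 fibroblast markers was 1092 CPM against 1879 to 2536 CPM. There the sum of the 10 primitive streak and early mesoderm markers was 250 CPM against 92.6 to 195 CPM, of which *T* was 173 CPM. That of the 10 muscle markers was 181 CPM against 42.3 to 76.6 CPM, most of it from 2 smooth muscle genes, *Tagln* (83.8 CPM) and *Acta2* (74.1 CPM). The endoderm sum was highest there as well, at 130 CPM against 34.1 to 92.0 CPM, with *Foxa1* at 39.9 CPM and *Foxa2* at 35.3 CPM. *Pax1*, a sclerotome factor named after its values were seen, was at 6.91 CPM in this library. Relatives of the factors were mixed there. *Tcf15*, of early somites, was at its NPC highest (6.27 CPM against 1.07 to 3.39 CPM). *Meox2* was at its NPC lowest (1.38 CPM against 3.28 to 5.42 CPM). The 10 neural crest markers had their highest sum in J/B replicate 2 (406 CPM against 182 to 301 CPM). Of these, *Sox10*, the defining marker of crest-derived glia, was at 0.23 to 1.95 CPM in NPCs. The part of each cell type in the differences between libraries was not tested.

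**Figure D3:**
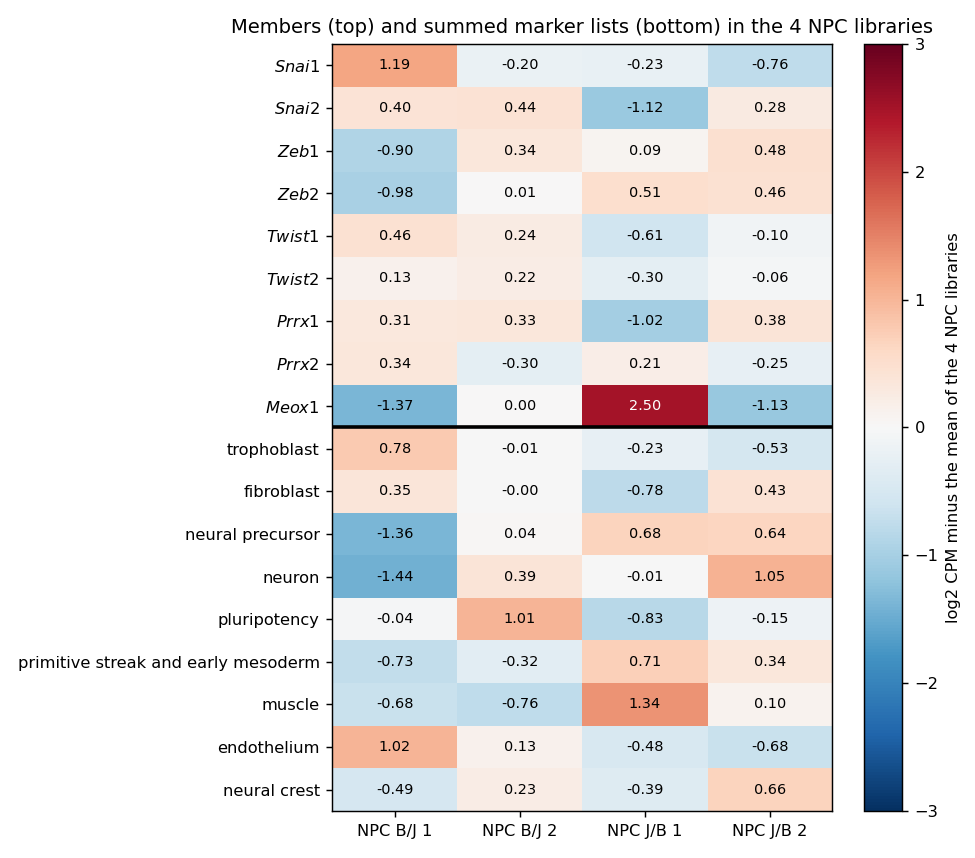
Deviation of each tested factor (top) and of the summed CPM of each marker list (bottom) in the 4 NPC libraries from their mean, in log2 CPM. *Meox1* in J/B replicate 1 has the largest deviation (2.50), *Snai1* is highest in B/J replicate 1 (1.19), and *Snai2* and *Prrx1* are lowest in J/B replicate 1 (-1.12 and -1.02).

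The other genes of these pathways were read from lists chosen by known role. Of 14 close relatives of the factors, 10 rose and 3 fell, where 37.5% of all genes tested rose and 31.9% fell. Their median log2 fold change was 3.57, against 0.17 over all genes tested. Without ESC B/J replicate 2, ESC J/B replicate 2, NPC B/J replicate 2 or NPC J/B replicate 2, 2 fell. The median was 4.77 without ESC B/J replicate 2. Among the rises were *Scrt2* (8.36 ± 0.58), *Alx4* (7.36 ± 0.75) and *Scrt1* (6.88 ± 0.69). The Scratch genes encode neuronal zinc fingers of the Snail superfamily, and *Alx4* encodes a homeobox factor of limb and craniofacial mesenchyme. *Alx4* had 3 counts in the ESC libraries together, so its fitted value depends on the small counts added by the fit and sets no order among these genes. The 3 that fell were *Msc* (-4.83 ± 0.30), *Tcf15* (-3.38 ± 0.44), which encodes a factor of early somites and of primed pluripotent cells, and *Snai3* (-1.46 ± 0.44), whose fall did not pass the test with library totals or housekeeping genes (adjusted p = 0.0761 and 0.111).

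Of 17 genes for E proteins, Id inhibitors and recruited repressors, 6 rose and 8 fell, where 37.5% of all genes rose and 31.9% fell, with a median of -0.09 that turned to 0.38 with library totals and 0.53 with housekeeping genes, where 6 rose and 5 fell. The median was 0.10 without ESC J/B replicate 2. Without ESC B/J replicate 2, 6 rose and 5 fell as well. *Tcf12* (2.34 ± 0.13) and *Tcf4* (1.77 ± 0.19), which encode E proteins that pair with Twist factors, rose, and *Tcf3* was at -0.09 ± 0.18 (adjusted p = 0.671). Of the Id genes, whose products keep E proteins from DNA, *Id4* rose (3.03 ± 0.51), and *Id1* (-1.16 ± 0.37) and *Id3* (-1.07 ± 0.12) fell, while *Id1* did not pass the test on the other 2 scales. Among genes for the repressors that Snail and Zeb factors recruit, *Hdac1* (-1.91 ± 0.14), *Ctbp2* (-1.77 ± 0.12), *Ajuba* (-1.69 ± 0.23) and *Sin3a* (-1.57 ± 0.13) fell, and *Limd1* (1.56 ± 0.15), *Rcor1* (1.19 ± 0.14) and *Ctbp1* (0.46 ± 0.14) rose, all on each of the 3 scales. *Wtip* (-0.60 ± 0.18) and *Kdm1a* (-0.41 ± 0.14) fell on the TMM scale alone, and *Hdac2* was at -0.07 ± 0.24 (adjusted p = 0.809).

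Of 14 genes for TGF-beta and BMP signals, which induce Snail, Zeb and Twist genes in many epithelia, 10 rose and 2 fell. Over all genes tested, 37.5% rose and 31.9% fell. The median of the list was 1.66, against 0.17 over all genes tested. The largest rises were those of the ligands *Tgfb3* (8.52 ± 0.39) and *Tgfb2* (5.79 ± 0.41) and of the receptor *Tgfbr2* (6.00 ± 0.34). The falls were *Bmp4* (-2.19 ± 0.21) and *Smad7* (-1.84 ± 0.25), which encodes an inhibitor of the pathway. BMP4 protein was part of the ESC medium, and a BMP inhibitor was part of the NPC medium.

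Other transcription factors of mesenchyme also rose. Of the 24 tested of 25, 19 rose and 1, *Wt1* (-1.52 ± 0.42), fell, where 37.5% of all genes tested rose and 31.9% fell. Their median was 4.26, against 0.17 over all genes tested. The list median was 5.23 without ESC B/J replicate 2 and 5.14 without ESC J/B replicate 2. *Wt1* missed the threshold with library totals and housekeeping genes (adjusted p = 0.0579 and 0.0979), and no gene of the list fell without NPC B/J replicate 1 or without NPC J/B replicate 2. *Ebf2* (8.73 ± 0.40) and *Sox9* (7.24 ± 0.42), the latter a factor of cartilage and of neural stem cells, had large rises, and *Osr1* had 0 counts in all ESC libraries and 16.5 ± 9.71 CPM in NPCs (SD, n = 4).

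Of 25 mesenchymal effector genes, 24 were tested, 20 rose and 1 fell, where 37.5% of all genes tested rose and 31.9% fell. Most of the fibroblast markers are also in this list, so the lists are not separate readings. The effector median was 3.40, against 0.17 over all genes tested. The median was 4.72 without ESC B/J replicate 2, 4.37 without ESC J/B replicate 1 and 4.31 without ESC J/B replicate 2. *Lum* (10.75 ± 0.79), *Col3a1* (8.61 ± 1.02) and *Postn* (7.73 ± 0.93), which encode matrix proteins of fibroblasts, had the largest fitted rises, though *Lum* had 4 counts in the ESC libraries together and *Postn* 18. *Cdh2*, the cadherin of mesenchyme and neural epithelium, rose by 1.50 ± 0.35 (adjusted p = 0.00595), and *Vim* by 1.36 ± 0.17 (adjusted p = 2.67e-04). *Fn1* was the gene that fell (-0.39 ± 0.13, adjusted p = 0.0281), and with library totals and housekeeping genes it was at 0.09 and 0.24, neither past the threshold. Without ESC J/B replicate 1, which had the highest reads of *Col1a1* and *Col3a1* among ESCs, 22 rose and 0 fell, and 0 fell also without ESC B/J replicate 1, NPC B/J replicate 1, NPC B/J replicate 2 or NPC J/B replicate 2.

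Of 25 epithelial genes, 9 rose, 1 fell and 15 did not pass the test, with a median of 0.58. This median was 0.27 without ESC J/B replicate 1, 1.47 without ESC J/B replicate 2, 1.04 with library totals and 1.18 with housekeeping genes. Over all genes tested 37.5% rose and 31.9% fell, with a median of 0.17. Without ESC J/B replicate 1, 9 rose and 3 fell, without ESC J/B replicate 2, 16 rose and 1 fell, and with housekeeping genes as the scale 11 rose and 0 fell. The gene that fell was *Cdh1*, which encodes E-cadherin. It was read at 352 and 541 CPM in B/J ESCs, at 251 and 541 CPM in J/B ESCs, at 292 and 306 CPM in B/J NPCs and at 177 and 221 CPM in J/B NPCs. The stages overlapped only through ESC J/B replicate 1, which was below both B/J NPC libraries. *Cdh1* had a log2 fold change of -1.25 ± 0.24 (adjusted p = 0.00242), of -0.79 with library totals (adjusted p = 0.0274) and -0.64 with housekeeping genes (adjusted p = 0.0849).

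The keratins of simple epithelia, which trophoblast also expresses, had the largest rises of this list. *Krt8* went from 19.6 ± 16.4 CPM in ESCs to 954 ± 424 CPM in NPCs (SD, n = 4), *Krt18* from 8.66 ± 5.79 to 622 ± 255 CPM, and *Krt19* from 2.70 ± 2.88 to 378 ± 205 CPM. Their log2 fold changes were 5.14 ± 0.67, 5.66 ± 0.56 and 6.64 ± 0.86. *Krt8* and *Krt18* were highest in NPC B/J replicate 1, at 1557 and 985 CPM. The trophoblast and endothelium sums, *Snai1*, *Twist1* and *Prrx2* were highest in that library as well. The part of trophoblast RNA in these values was not tested. *Epcam*, with 76.2 ± 39.1 CPM in the ESC libraries and 76.3 ± 33.2 CPM in the NPC libraries, did not pass the test (-0.54 ± 0.36, adjusted p = 0.214).

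**Figure D4:**
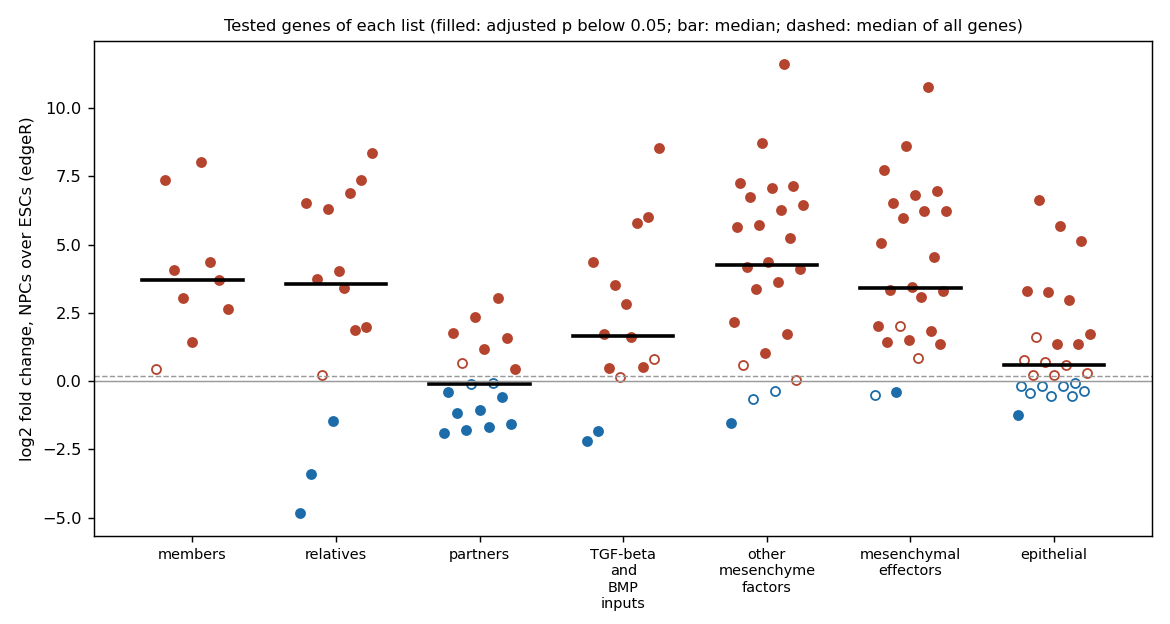
Log2 fold change in NPCs over ESCs of the tested genes of each list, red for positive and blue for negative values, filled where the adjusted p was below 0.05, with the median of each list as a black bar and that of all genes as a dashed line. The lists of mesenchyme factors and mesenchymal effectors lie mostly above 0 (medians 4.26 and 3.40), and the epithelial genes spread on both sides of it (median 0.58).

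Promoters were read next, since Snail, Zeb and Twist factors bind E-boxes. The motif searched for Snail and Zeb factors was CAGGTG, read as CACCTG on the other strand. For Twist factors it was CATCTG, read on the opposite strand as CAGATG. Windows of the 250 bases before the annotated start were taken from RefSeq (GRCm38.p6), on the strand of the gene. They were read for 7 of the 10 factors (*Snai1*, *Zeb2*, *Twist1*, *Twist2*, *Tcf21*, *Prrx1* and *Prrx2*). *Snai2* and *Meox1* had no entry, and for the factors windows on chromosome 18, where *Zeb1* lies, were left out. Of all 32851 windows, 17.2% held CAGGTG on either strand and 14.4% held CATCTG. The motifs differ in letters, so no site counts for both. Among the 7 factors, the window of *Snai1* held CAGGTG and the windows of the other 6 did not, and none held CATCTG. Windows were found for 17 of the 25 epithelial genes, and 11 of these had CAGGTG in at least 1 window, where 19.4% of all 27025 genes with a window did. None of the 17 held CATCTG.

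Shown are the window of *Snai1* with its motif, that of *Prrx1*, a factor nearly without counts in ESCs, and those of 3 epithelial genes, with CAGGTG or CACCTG in capitals:

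Snai1 (chr2:167537945-167538194, plus strand): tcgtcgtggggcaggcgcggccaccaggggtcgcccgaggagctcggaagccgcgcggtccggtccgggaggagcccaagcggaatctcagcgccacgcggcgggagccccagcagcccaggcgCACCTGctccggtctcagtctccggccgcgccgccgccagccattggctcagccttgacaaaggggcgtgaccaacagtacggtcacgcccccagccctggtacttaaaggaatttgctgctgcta

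Prrx1 (chr1:163313651-163313900, minus strand): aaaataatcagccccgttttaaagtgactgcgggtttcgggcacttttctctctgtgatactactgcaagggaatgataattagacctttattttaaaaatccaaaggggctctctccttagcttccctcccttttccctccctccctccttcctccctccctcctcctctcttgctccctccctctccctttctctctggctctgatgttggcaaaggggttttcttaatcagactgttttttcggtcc

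Epcam (chr17:87635729-87635978, plus strand): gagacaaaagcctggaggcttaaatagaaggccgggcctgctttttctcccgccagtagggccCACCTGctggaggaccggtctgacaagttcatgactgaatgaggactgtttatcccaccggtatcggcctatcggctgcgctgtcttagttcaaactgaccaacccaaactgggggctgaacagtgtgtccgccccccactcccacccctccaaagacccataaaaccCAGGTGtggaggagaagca

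Ap1m2 (chr9:21312334-21312583, minus strand): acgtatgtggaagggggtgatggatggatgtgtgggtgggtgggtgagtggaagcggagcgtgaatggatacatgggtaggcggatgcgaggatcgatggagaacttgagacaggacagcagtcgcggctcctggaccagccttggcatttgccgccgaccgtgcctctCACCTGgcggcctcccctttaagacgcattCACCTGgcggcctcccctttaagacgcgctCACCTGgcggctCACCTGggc

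Krt18 (chr15:102027966-102028215, plus strand): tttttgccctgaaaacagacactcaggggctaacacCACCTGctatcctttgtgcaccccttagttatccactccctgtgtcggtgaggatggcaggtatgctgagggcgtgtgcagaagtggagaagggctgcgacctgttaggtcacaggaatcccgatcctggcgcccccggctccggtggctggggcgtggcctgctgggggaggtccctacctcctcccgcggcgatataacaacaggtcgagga

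The CAGGTG motif of *Snai1*, read here as CACCTG, began 126 bases before the start. *Ap1m2*, a gene of the epithelial sorting adaptor, had 4 such motifs, beginning 81, 51, 21 and 9 bases before the start, and *Epcam* had 2, at 187 and 19 bases. *Krt18* had 1, at 214 bases, and the window of *Krt8* had 1 at 111 bases. Of the 11 epithelial genes with the motif, 3 rose (*Cldn4*, *Krt8* and *Krt18*) and 0 fell. Of the 6 without it, 4 rose (*Cldn3*, *Marveld2*, *Dsp* and *Jup*) and 0 fell. *Cdh1*, the only epithelial gene that fell, had no window, so neither group could hold a fall. Over all genes tested, 37.5% rose and 31.9% fell. *Ap1m2* had a log2 fold change of -0.44 ± 0.61 (adjusted p = 0.544). A match describes the letters of the window and is not a binding site, and binding was not measured in these libraries.

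The genes most like each factor were found by the root-mean-square distance of log2 TMM-scaled CPM, centred on the gene's mean, over the 8 libraries and 14080 genes with a mean of at least 1 CPM. *Twist1* had the closest, *Tec* at a distance of 0.17, followed by *Ctdspl* (0.22) and *Vav3* (0.27). For *Zeb1* they were *Ccdc159* (0.21), *Nol4l* (0.22) and *Lyrm9* (0.23), and for *Zeb2* *P4ha3* (0.25), *Tmtc2* (0.25) and *Ccdc177* (0.27). For *Snai1* they were *Dap* (0.27), *Adgrg6* (0.27) and *Arhgap10* (0.29), and for *Snai2* *Npnt* (0.24), *Rnf43* (0.35) and *Exph5* (0.36). *Twist2* was nearest to *Gdnf* (0.25), which encodes a neurotrophic factor, *Alpk1* (0.42) and *Bend6* (0.48). For *Twist2* and *Prrx1*, whose ESC counts were few, the small count added before the log sets part of the distance. *Prrx1* was nearest to *Vnn1* (0.43), *Col6a1* (0.60) and *Islr* (0.71), of which *Col6a1* encodes a collagen of connective tissue. *Prrx2* was nearest to *Tmem119* (0.40), *Camk1* (0.44) and *Tmem116* (0.44). The distances of *Meox1* were larger, with *Gm11627* (0.68), *Prtg* (0.70) and *Doc2a* (0.74).

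On the scale of RT-qPCR, with each count set against *Gapdh*, *Gusb* and *Tbp* (their geometric mean), the ratios of NPCs to ESCs were 12.1 for *Snai1*, 24.9 for *Snai2*, 4.30 for *Zeb1*, 31.0 for *Zeb2*, 21.4 for *Twist1* and 11.6 for *Prrx2*. For *Twist2* and *Prrx1* the ratios, with 0 counts set to 0.5, were 120 and 499. Each of these 8 gave p = 0.0286, the smallest value that the two-sided exact permutation test can reach with 4 libraries a stage. The ratios of *Tcf21* (1.42, exact permutation p = 0.543) and *Meox1* (1.53, exact permutation p = 0.686) did not differ beyond the spread between libraries. *Gapdh* itself fell by 1.43 on the log2 scale in edgeR's fit (adjusted p = 1.42e-04) and *Tbp* by 0.69 (adjusted p = 0.00408), while *Gusb* was at 0.23 (adjusted p = 0.427). A fall of the reference genes raises each of these ratios.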

How the data were processed

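Paired reads were aligned by the authors (TopHat2, SNP-masked mm39, refGene-based annotation), and alignments were filtered for pairing and mapping quality. The deposited values are raw counts of reads per gene, summed over both alleles. HTSeq, DESeq2 and edgeR are in the submitters' processing notes, with their versions and the strand setting not given in the sources used here. Libraries were made with TruSeq Stranded mRNA or NEBNext Ultra II kits, without a statement of which library had which. The 5 closing entries of each file were left out; 5.76% to 10.9% of entries were reads on no gene and 0.36% to 0.55% ambiguous reads.

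The tools were edgeR 4.0.16, DESeq2 1.42.0 and limma 3.58.1 (R 4.3.3). In edgeR, filterByExpr (minimum count 10) left 16399 genes, TMM factors were applied, and 4 group means were fitted over 8 libraries with robust quasi-likelihood dispersions (common dispersion 0.113). Standard errors are the fold change over the root of the F statistic. P-values were adjusted over all genes, with a threshold of 0.05. Counts of 0 carry an upper limit of 3 counts, and intervals (95%, exact) cover counting error only. Alternatives were RLE factors, library totals, housekeeping genes, DESeq2, limma-voom, no filter, a mean of 1 CPM, no robust estimation, a replicate block, a 2-fold threshold, only the 4 libraries compared, each library left out and, added after the data were seen, a replicate block in each stage.

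The factors, the lists and the tests were chosen with earlier results of these data known. Named were all 10 factors, the 3 largest rises and falls of a list with a mean of at least 1 CPM, genes a sentence turns on, and the 3 genes nearest to each factor. Positions are from GENCODE vM39 (GRCm39). Allelic expression was not analysed here.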

Additional observations from a re-analysis of the deposited data

Results flagged for a closer look

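In the 4 NPC libraries, 4 of the factors had a library whose gap to the nearest other library was a larger part of the whole range than Dixon's critical value for 4 samples at 95%. Of 20 groups of 4 libraries looked at, chance alone would mark about 1 in 20. *Snai1* was at 81.2 CPM in B/J replicate 1, above the other 3 libraries, with a gap of 0.836 of the range. *Snai2* was at 4.98 CPM in J/B replicate 1, below the other 3 (0.836). *Prrx1* was at 27.1 CPM in J/B replicate 1, below the other 3 (0.924). *Meox1* was at 20.8 CPM in J/B replicate 1, above the other 3 (0.883). The last 3 lie in 1 library, and what they share with each other was not tested.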

How the results depend on the processing

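The 8 factors that rose between the stages did so under every alternative run (136 of 136 values kept direction and call), leaving out each library included. The count of genes called was 11378, with 8527 at a change of at least 2-fold as the lowest. Replicate numbers did not pair the samples across the stages (correlations of the differences between replicates of 0.04 to 0.09, against 0.43 between the ESC groups and 0.62 between the NPC groups), and a replicate block gave 12010 genes and 8 factors called. With a separate replicate block for ESCs and for NPCs, an alternative added once the data had been seen, 0 factors were called in any comparison of the crosses, and the genes called were 0 in the interaction, 0 in ESCs and 4 in NPCs, with the interaction of *Zeb1* at 0.045 and adjusted p of 0.140 for *Snai1*, 0.168 for *Zeb2* and 0.240 for *Twist1* in NPCs. Within the crosses, the number of factors called was 6 to 8 in B/J and 6 to 8 in J/B; *Zeb1* passed under 10 alternatives in B/J and 5 in J/B. On TMM-normalized CPM, the ratio of *Zeb1* was 2.78 (exact permutation p = 0.0571), that of *Tcf21* 0.919 and that of *Meox1* 0.990.

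The direction of *Meox1* depended on single libraries. With each library left out, its log2 fold change was -0.94 to 0.89 over both crosses, -1.05 to 0.27 within B/J, -1.64 to 2.02 within J/B and -1.39 to 2.27 in the interaction, and between the crosses -0.13 to 1.23 in ESCs and -0.68 to 2.98 in NPCs. Within B/J it was 0.22 with library totals and 0.30 with housekeeping genes. Its ratio to housekeeping genes was 0.861 to 2.19. Differences between the crosses that had passed no test also changed direction. With each library left out, the interaction was -1.29 to 0.16 for *Snai1*, -0.65 to 0.69 for *Zeb1*, -0.53 to 0.41 for *Zeb2* and -1.59 to 0.90 for *Prrx2*. The difference in ESCs was -0.28 to 1.06 for *Zeb1*, -0.66 to 0.83 for *Twist1* and -1.01 to 1.48 for *Prrx2*, and that in NPCs -0.083 to 1.11 for *Zeb1* and -0.43 to 0.26 for *Prrx2*. With housekeeping genes, the interaction was 0.11 for *Zeb1* and 0.10 for *Zeb2*, and *Prrx2* in NPCs was at 0.13; with limma-voom the interaction of *Zeb1* was 0.10. The low ends for *Meox1* other than within B/J and in ESCs were without NPC J/B replicate 1; the cause was not tested. Depth limits *Tcf21*, *Twist2* and *Prrx1* in ESCs, where 1 count was worth 0.036 to 0.044 CPM.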
